A study of Mus musculus with 8 samples.

Results

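The 9 genes described here encode thioredoxins of sperm and spermatids and enzymes that remove peroxides and superoxide, namely Txndc2, Txndc8, Nme8, Txnrd3, Gpx4, Prdx4, Prdx1, Sod1 and Gsr. They were chosen by name for their role, with earlier results of these data known. All 9 were found among the 19906 genes of the deposited table. RNA was taken from the whole testis of 4 Tmem232-/- and 4 Tmem232+/+ mice at 2 months of age, with 1 library per mouse. In the Tmem232-/- mice a fragment inside Tmem232, a transmembrane protein gene of the testis, had been deleted with CRISPR-Cas9 in C57BL/6 oocytes, so that the reading frame shifts. Whether the wild-type mice were littermates was not given in the sources used here. Levels are given as CPM (counts per 1000000 counts) after TMM normalization, which scales each library by a trimmed mean of its gene ratios, and libraries are called knockout-labelled (Tmem232-/-) or wild-type-labelled (Tmem232+/+).

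Thioredoxins are small proteins that reduce disulfide bonds in other proteins with a pair of cysteines, and thioredoxin reductases restore them. Peroxiredoxins and glutathione peroxidases reduce hydrogen peroxide and lipid peroxides, superoxide dismutases turn superoxide into hydrogen peroxide, and glutathione reductase keeps glutathione in its reduced form. Male germ cells have their own versions of several of these proteins, and in late spermatids disulfide bonds stabilise the chromatin and the structures of the tail.

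The coding sequences that make these proteins redox enzymes are shown for the thioredoxins, since these are the members whose levels rose. The capitals mark the 5 codons of the thioredoxin active site, 5′ to 3′ on the coding strand, read from GENCODE M21 transcripts on GRCm38, the build of the deposited table. All 3 lie in coding exons on the minus strand, and ubiquitous Txn1 is added for comparison.
Txndc2, chr17:65637726-65637770: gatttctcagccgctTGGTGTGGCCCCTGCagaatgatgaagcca
Txndc8, chr4:58007084-58007128: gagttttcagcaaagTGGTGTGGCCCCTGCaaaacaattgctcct
Nme8, chr13:19696644-19696688: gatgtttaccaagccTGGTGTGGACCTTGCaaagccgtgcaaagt
Txn1, chr4:57951806-57951850: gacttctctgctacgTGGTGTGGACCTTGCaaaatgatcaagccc

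Txndc2 and Txndc8 held the same bases at the active site, and Nme8 held those of Txn1. The active site began at codon 476 of 550 in Txndc2, at codon 57 of 153 in Txndc8, at codon 38 of 586 in Nme8 and at codon 31 of 105 in Txn1. The coding sequence of Txndc2 was also repetitive. Shifted by 90 bases against itself, 53.7% of its bases were identical, whereas the best shift gave between 28.2% and 32.3% in the other 8 genes. Only shifts of whole codons up to 90 bases were tried, so 90 bases need not be the length of the repeat.

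Gpx4 and Txnrd3 encode selenoproteins, in which an in-frame TGA codon, shown in capitals, is read as selenocysteine. No other member had such a codon.
Gpx4, chr10:80054722-80054754, plus strand: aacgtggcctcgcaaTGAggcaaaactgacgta
Txnrd3, chr6:89674774-89674797, plus strand: actcagaaaggctgcTGAggctag

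In Gpx4 it was codon 129 of 253 in the longest transcript, and in Txnrd3 it was codon 614 of 615, with 1 further codon before the stop codon.

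Before the results, some properties of the libraries bear on them. Total counts lay between 15428421 and 16350871 per library, and the member counts between 161 and 10237. Tmem232 itself had 122.1 to 147.6 CPM in the knockout-labelled libraries and 106.3 to 111.2 CPM in the wild-type-labelled ones (log2 fold change 0.27 ± 0.07 (SE), edgeR adjusted p = 0.0335), and this call was lost in 6 of 19 alternatives. Its level therefore went against the labels, although a gene-level count does not separate the deleted exons from the rest, which is why the groups are called by their labels. An exchange of the labels would turn the sign of every fold change given here. The testis markers were present, but the transcripts of the protamines, which pack the sperm chromatin, were lower in the wild-type-labelled than in the knockout-labelled libraries. Whether either group had the usual level of an adult testis was not tested. Prm1 had 1.63 to 7.54 CPM in the wild-type-labelled libraries and 44.3 to 131.8 CPM in the knockout-labelled libraries, and Prm2 had 2.66 to 12.5 and 67.9 to 196.3 CPM (these 2 genes were chosen after their values were seen). The epididymal gene Crisp1 was above 1 CPM in 3 libraries, with 5.52 CPM in knockout-labelled replicate 1 and 27.0 and 9.94 CPM in wild-type-labelled replicates 1 and 3. The other epididymal genes did not mark these libraries in the same way. Gpx5, Lcn5 and Defb41 had at most 0.13, 0.19 and 0.25 CPM in any library, and Rnase10 had 5.63 to 9.31 CPM over all libraries. Leaving out these 3 libraries left Txndc2 and Txndc8 called, and Nme8 had a log2 fold change of 0.30 with an adjusted p of 0.0534 by edgeR, where 5 libraries remained.

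Between the genotypes, 3 of the 9 genes were higher in the knockout-labelled libraries and none was lower (edgeR quasi-likelihood test, Benjamini-Hochberg adjusted p under 0.05 over 15787 tested genes). All 3 were the sperm thioredoxins Txndc2, Txndc8 and Nme8. The share over all tested genes was 10.3% for higher and 1.46% for lower. At an unadjusted p under 0.05 the number of members was 5, with Prdx4 higher and Gsr lower in addition, beside 14.6% of all genes higher and 10.5% lower. DESeq2 called 4 members higher and 0 lower, beside 10.3% and 1.25% of the 17560 genes it tested. With a fold change of 2 or more as well, 2 members were higher (Txndc2 and Txndc8) and 0 were lower, beside 5.23% and 0.0443% of all genes. The members had a median log2 fold change of 0.11, beside -0.05 for all tested genes. Levels did not overlap between the genotypes, with every knockout-labelled library above, for the same 3 members, as for 11.8% of all genes, and below for Gsr, as for 6.88% of all genes.

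**Figure D1:**
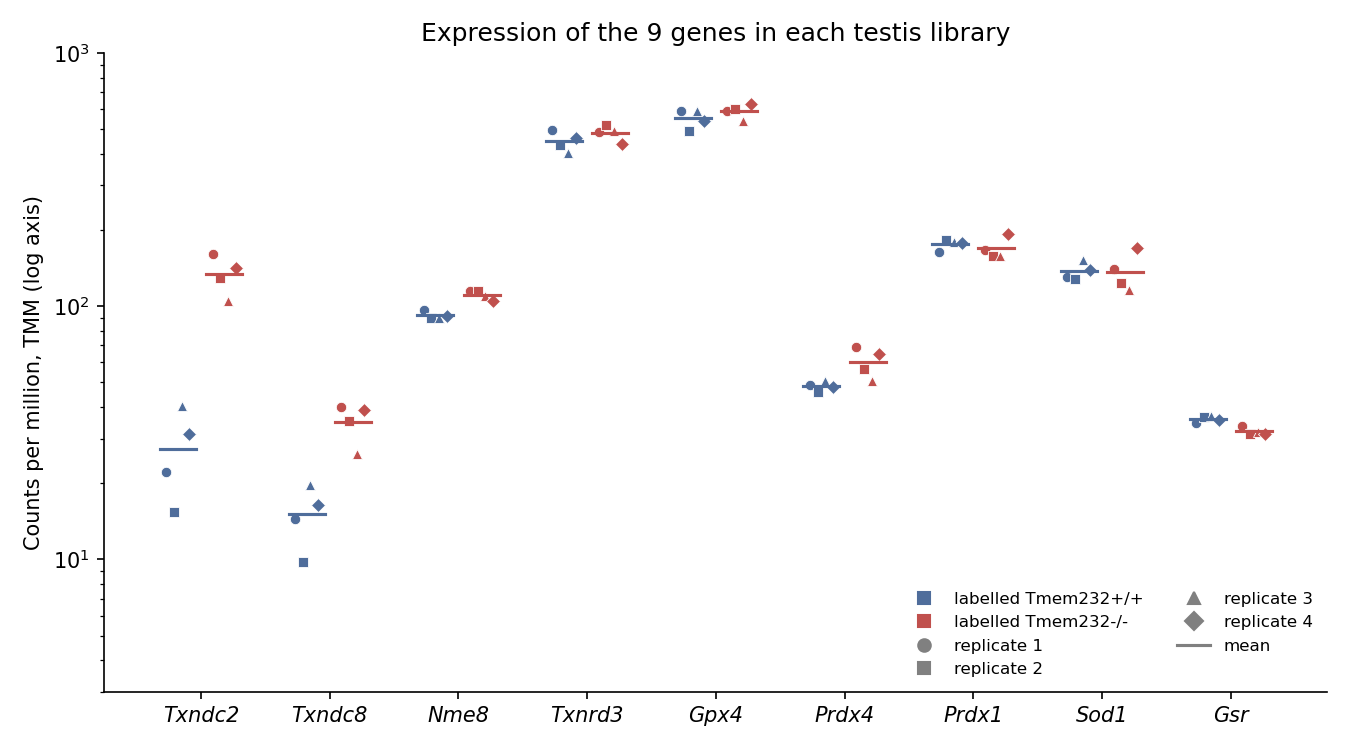
Level of each of the 9 genes in CPM on a log axis, in the 4 wild-type-labelled libraries (blue) and the 4 knockout-labelled ones (red), with a shape for each replicate number and a line at the group mean. Txndc2 and Txndc8 stand apart between the genotypes, from 15.4 to 40.5 against 105.2 to 160.5 CPM for Txndc2, whereas Gpx4, Txnrd3, Prdx1 and Sod1 overlap.

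Txndc2 (Entrez ID 213272, chr17:65637505-65649725, minus strand) encodes sperm-specific thioredoxin of the fibrous sheath, the sleeve around the axoneme in the principal piece of the tail. Its level was 160.5, 129.3, 105.2 and 141.7 CPM in knockout-labelled replicates 1 to 4. In the wild-type-labelled replicates it was 22.2, 15.4, 40.5 and 31.2 CPM. Every knockout-labelled library was above every other library, replicate 3 was the lowest of the former, and replicate 3 was the highest of the latter. Its mean of 134.2 ± 23.2 CPM compared with 27.3 ± 10.9 CPM (SD, n = 4 each), a log2 fold change of 2.30 ± 0.24 (SE) or 4.91-fold with a 95% interval of 3.39 to 7.13, with an edgeR adjusted p of 8.29e-05. This was the largest change of the 9 genes, and 127 of the 15787 tested genes had a larger log2 fold change.

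Txndc8 (Entrez ID 67402, chr4:57984021-58009135, minus strand) encodes a thioredoxin of spermatids that lies at the Golgi and the forming acrosome. It had 40.0, 35.1, 26.0 and 38.8 CPM in knockout-labelled replicates 1 to 4. It had 14.4, 9.75, 19.7 and 16.5 CPM in the wild-type-labelled ones. The genotypes did not overlap, and replicate 3 was again the lowest of one group and the highest of the other. The log2 fold change was 1.21 ± 0.19 (SE), or 2.32-fold with a 95% interval of 1.72 to 3.12, with an edgeR adjusted p of 0.00126.

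Nme8 (Entrez ID 73412, chr13:19645061-19697827, minus strand) joins a thioredoxin domain to nucleoside diphosphate kinase domains and is found in the sperm tail and in cilia. Its level was 114.9, 114.5, 109.4 and 105.3 CPM in knockout-labelled replicates 1 to 4. It was 97.1, 89.7, 89.5 and 91.8 CPM in the wild-type-labelled ones. The groups did not overlap, but the change was small beside that of the other sperm thioredoxins, at a log2 fold change of 0.27 ± 0.06 (SE) and 1.21-fold with a 95% interval of 1.10 to 1.32 (edgeR adjusted p = 0.0124). Without wild-type-labelled replicate 4 the adjusted p was 0.0504, with a log2 fold change of 0.27. The exact permutation test over 70 arrangements gave a two-sided p of 0.0286 for Txndc2, Txndc8 and Nme8, the smallest this design allows.

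Spermatid markers moved with these genes. Of 12 elongating spermatid markers, 11 were higher and Hspb9 had a log2 fold change of -0.12 with an adjusted p of 0.645, and of 10 round spermatid markers 9 were higher and Acr had 0.20 with an adjusted p of 0.151. The summed level of the elongating list was 1639 to 2608 CPM in the knockout-labelled libraries and 624 to 1161 CPM in the wild-type-labelled ones. For the round spermatid list it was 783 to 1013 and 401 to 582 CPM. No marker of either list was at 0 in all libraries. In a whole testis, fewer cells of a type and less RNA per cell cannot be told apart.

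Within each genotype, the 4 libraries had the same order for Txndc2, for Txndc8 and for the summed elongating markers. That order was replicates 1, 4, 2 and 3 from the highest in the knockout-labelled libraries, and replicates 3, 4, 1 and 2 in the wild-type-labelled ones. How many other genes had these orders is not given here, so the match is not read as particular to these genes. In the wild-type-labelled libraries, the elongating sums of replicates 4 and 1 were nearly equal, at 820.9 and 819.8 CPM. The round spermatid sum had the same order as the elongating sum in the wild-type-labelled libraries, but in the knockout-labelled ones it ran replicates 1, 2, 4 and 3. Per 1000 CPM of elongating markers, Txndc8 had 15.9 ± 0.64 CPM in the knockout-labelled libraries against 17.5 ± 1.86 CPM in the wild-type-labelled ones (SD, n = 4 each), a ratio of 0.91. Txndc2 had 61.1 ± 3.03 and 31.2 ± 6.29 CPM (SD, n = 4 each), a ratio of 1.96. Both ratios rest on Hspb9, which made up 39.6% to 46.4% of the summed elongating markers in the wild-type-labelled libraries and 14.1% to 17.8% in the knockout-labelled ones. Without Hspb9 the mean sum of the other 11 markers was 1870 CPM against 491 CPM, a ratio of 3.81, and the order of the libraries stayed as given. Per 1000 CPM of these 11 markers the ratio was 1.33 for Txndc2 and 0.61 for Txndc8. Per 1000 CPM of round spermatid markers the ratio was 1.33 for Txndc8 and 2.84 for Txndc2, and without Acr, which did not pass the test, it was 1.10 and 2.36. These ratios, and the removal of Hspb9 and of Acr, were chosen after the values were seen and carry no test, and the part of spermatid content in the rise of either gene was not tested.

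**Figure D2:**
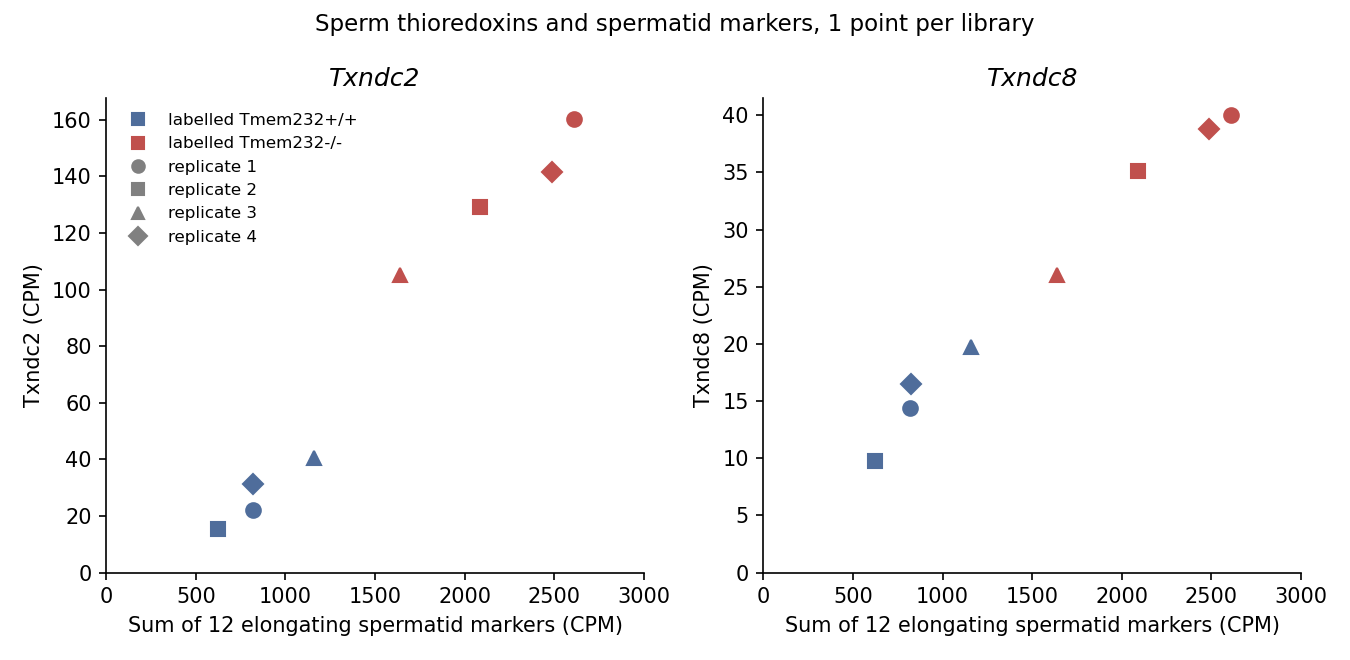
Level of Txndc2 (left) and Txndc8 (right) in CPM against the summed CPM of 12 elongating spermatid markers, 1 point for each library, with the same colours and shapes as for the plot of the 9 genes. Both genes follow the order of the summed markers within each genotype, although the sums of wild-type-labelled replicates 4 and 1 are nearly equal. The markers range from 624 to 1161 CPM in the wild-type-labelled libraries and from 1639 to 2608 CPM in the others.

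Markers of other cells showed smaller differences or none that passed the test. Of 8 spermatogonial markers 3 were lower, and their sum was 193 to 211 CPM in the knockout-labelled libraries and 233 to 261 CPM in the others. Of 10 spermatocyte markers 2 were lower, with overlapping sums of 3597 to 4455 and 3852 to 4608 CPM. Of 6 peritubular myoid markers 2 were lower, Acta2 among them (log2 fold change -0.38, adjusted p = 0.0182), and the fold changes of all 6 lay between -0.38 and -0.26. Their sums did not overlap, at 252 to 303 CPM in the knockout-labelled libraries and 322 to 375 CPM in the others. None of the 9 Sertoli, 8 Leydig, 7 macrophage, 6 endothelial and 5 red blood cell markers passed the test. The Sertoli sums were 1454 to 1859 CPM in the knockout-labelled libraries and 1715 to 1818 CPM in the others, and the Leydig sums 481 to 711 and 308 to 540 CPM. Of the 8 Leydig markers 7 had a log2 fold change above 0, with a median of 0.41 over the list. Among them Star (0.34, adjusted p = 0.0718) and Cyp17a1 (0.82, adjusted p = 0.125) did not overlap between the genotypes, and Lhcgr had 0.95 (adjusted p = 0.0512), 3 genes chosen after their values were seen. Those of macrophages were 78.7 to 102 and 75.0 to 105 CPM, of endothelial cells 24.8 to 39.9 and 28.1 to 39.2 CPM and of red blood cells 150.2 to 596 and 305 to 595 CPM, all overlapping. Of the epididymal list 2 genes were tested and none passed, with sums of 5.76 to 12.3 and 5.99 to 34.9 CPM. The part of these cells in the members' levels was not tested.

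For each of the 3 called thioredoxins, the genes with the nearest profile over the 8 libraries were sought by the root mean square distance of centred log2 CPM among 15063 genes. Nearest to Txndc2 were Cct8l1, 4930435E12Rik and 4921509C19Rik, at distances of 0.10 to 0.11. These rose by 2.22, 2.46 and 2.48 on the log2 scale, with adjusted p values of 3.76e-05 to 8.59e-05. Nearest to Txndc8 were 1700003F12Rik, Dusp13 and Tex33, at 0.05 to 0.08, with log2 fold changes of 1.24, 1.25 and 1.24. Nearest to Nme8 were Cfap221, Mllt11 and Psmd10, at 0.02 to 0.03, with log2 fold changes of 0.25, 0.29 and 0.28, of which that of Psmd10 had an adjusted p of 0.067 and passed in 5 of 19 alternatives. The calls of Cfap221 and Mllt11 were lost in 6 and 2 of 19 alternatives. A like profile was measured over the same 8 libraries that gave the fold changes.

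Txnrd3 and Gpx4 are the members that contain selenocysteine. Txnrd3 (Entrez ID 232223, chr6:89643988-89675529, plus strand) is the thioredoxin reductase of the testis and also carries a glutaredoxin domain. Its level was 488.2, 521.6, 492.5 and 436.3 CPM in knockout-labelled replicates 1 to 4, and 498.8, 432.5, 401.3 and 461.0 CPM in the wild-type-labelled ones. The genotypes overlapped, and the log2 fold change was 0.11 with a 95% interval of -0.07 to 0.30 (edgeR adjusted p = 0.437). Gpx4 (Entrez ID 625249, chr10:80047166-80056439, plus strand) reduces lipid peroxides and in sperm also becomes a structural protein of the mitochondrial capsule. It had 590.8, 602.1, 538.7 and 629.4 CPM in knockout-labelled replicates 1 to 4, and 592.2, 493.3, 589.6 and 538.6 CPM in the others. These also overlapped, with a log2 fold change of 0.09 and an interval of -0.08 to 0.27 (edgeR adjusted p = 0.501). Changes beyond 1.23-fold in Txnrd3 and 1.20-fold in Gpx4 towards higher levels lay outside the intervals.

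Prdx4 (Entrez ID 53381, chrX:155323918-155340749, minus strand) is the peroxiredoxin of the endoplasmic reticulum. It had 68.9, 56.3, 50.5 and 65.0 CPM in knockout-labelled replicates 1 to 4, and 48.9, 46.0, 50.7 and 47.8 CPM in the wild-type-labelled ones. Knockout-labelled replicate 3 lay just under wild-type-labelled replicate 3, and the other 3 knockout-labelled libraries lay above all 4 of the others. The log2 fold change was 0.32 ± 0.10 (SE) with a 95% interval of 0.11 to 0.53, and the adjusted p of 0.0558 missed the threshold. It passed in 5 of 19 alternatives, of which 2 each left out 1 replicate 3, at an adjusted p of 0.0126 without the knockout-labelled one and of 0.0302 without the wild-type-labelled one.

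Prdx1 (Entrez ID 18477, chr4:116685599-116700000, plus strand) is the cytosolic peroxiredoxin. It had 166.8, 158.3, 158.6 and 193.7 CPM in knockout-labelled replicates 1 to 4, and 164.4, 183.5, 179.0 and 177.4 CPM in the others. The genotypes overlapped, with both the highest and the lowest value in knockout-labelled libraries (log2 fold change -0.06, 95% interval -0.23 to 0.12, edgeR adjusted p = 0.694). Sod1 (Entrez ID 20655, chr16:90220742-90226324, plus strand), the copper and zinc superoxide dismutase, had 139.8, 123.1, 115.7 and 169.9 CPM in knockout-labelled replicates 1 to 4, and 130.0, 128.4, 152.6 and 139.5 CPM in the others. The same pattern was seen, with knockout-labelled replicate 4 the highest and replicate 3 the lowest of the 8. The log2 fold change of Sod1 was -0.01 with an interval of -0.26 to 0.25 (edgeR adjusted p = 0.984), and its sign changed with DESeq2, its size factors, both filters on low counts and 6 removals of libraries.

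Gsr (Entrez ID 14782, chr8:33653238-33720347, plus strand) encodes glutathione reductase. It had 33.6, 31.4, 32.0 and 31.4 CPM in knockout-labelled replicates 1 to 4, and 34.5, 36.5, 36.8 and 35.4 CPM in the wild-type-labelled ones. All 4 knockout-labelled libraries lay below the others, by a log2 fold change of -0.16 with a 95% interval of -0.30 to -0.01. The unadjusted p was 0.0333 and the adjusted p 0.158, so Gsr did not pass the test. The exact permutation test gave a two-sided p of 0.0286 for Gsr, 0.0571 for Prdx4 and 0.229 to 1 for Gpx4, Txnrd3, Prdx1 and Sod1.

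**Figure D3:**
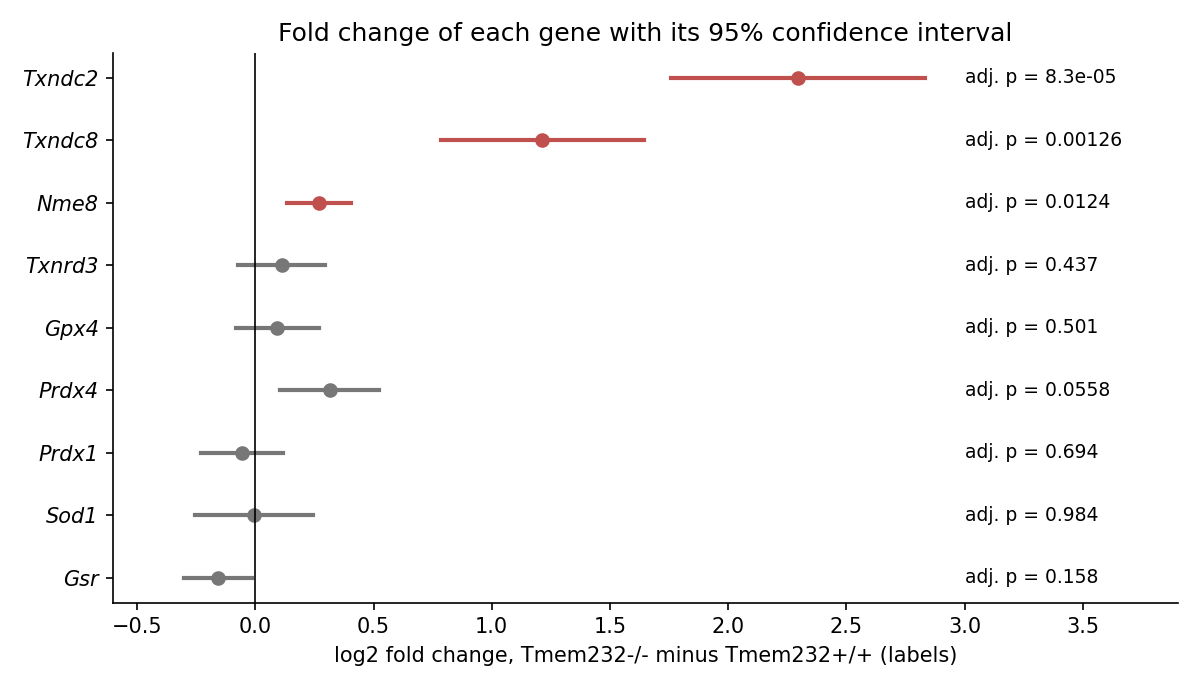
Log2 fold change of each of the 9 genes, knockout-labelled minus wild-type-labelled libraries (n = 4 each), with its 95% confidence interval and edgeR adjusted p, in red where this is under 0.05. Txndc2 at 2.30 and Txndc8 at 1.21 lie far from 0, Nme8 at 0.27 is called with a narrow interval, and Prdx4 at 0.32 is not.

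Levels between genes were compared per length, as the deposited FPKM (fragments per kilobase, scaled to the library). In the wild-type-labelled libraries the order was Gpx4 at 711.1 ± 50.7, Sod1 at 293.5 ± 26.0, Txnrd3 at 170.1 ± 12.6 and Prdx1 at 143.3 ± 9.73 FPKM (SD, n = 4 each). Then came Prdx4 at 59.3 ± 2.11, Nme8 at 50.3 ± 1.24, Txndc8 at 34.8 ± 9.67, Txndc2 at 16.1 ± 6.55 and Gsr at 14.5 ± 0.72 FPKM. The ranges of Txndc8 and Txndc2 overlapped, as did those of Txndc2 and Gsr, and no other neighbours did. In the knockout-labelled libraries the first 4 kept their places, but Txndc2 at 78.8 ± 13.8 and Txndc8 at 78.7 ± 13.8 FPKM came next, with ranges that overlapped each other. Txndc8 also overlapped Prdx4 at 69.7 ± 9.24 FPKM, which overlapped Nme8 at 58.1 ± 1.60 FPKM, and Gsr remained last at 12.7 ± 0.28 FPKM. The ratio of Txndc2 to Txndc8 was 0.95 to 1.05 in the knockout-labelled libraries and 0.40 to 0.52 in the others, as a description with no test.

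Within its family, Gpx4 made up 93.5% ± 0.43 of the summed FPKM of 8 glutathione peroxidases in the knockout-labelled libraries and 93.4% ± 0.94 in the others (SD, n = 4 each). Txnrd3 made up 89.2% ± 0.59 and 88.0% ± 0.70 of the 3 thioredoxin reductases. Sod1 made up 82.2% ± 0.97 and 81.4% ± 0.80 of the 3 superoxide dismutases. The peroxiredoxins were shared more evenly, with Prdx1 at 28.1% ± 1.07 and 27.4% ± 1.71 and Prdx4 at 14.5% ± 1.08 and 11.3% ± 0.27 of 6 genes. The ranges of the Prdx4 share did not overlap, from 13.7% to 16.0% and from 11.1% to 11.6%, although its CPM overlapped and did not pass the test. A share also moves with the rest of the family. The other peroxiredoxins had log2 fold changes of -0.24 to -0.05, none of which passed. Shares also did not overlap for other genes, such as Gpx6, Txn1 and Txn2. Among 5 thioredoxins, Txndc2 made up 24.3% ± 1.96 in the knockout-labelled libraries and 7.25% ± 2.12 in the others, and Txndc8 24.3% ± 1.98 and 15.9% ± 2.67. The share of Nme8 was 18.2% ± 2.19 and 23.4% ± 2.39, lower in the knockout-labelled libraries although its level was called higher, since the shares of a family add up to a fixed total. The level of ubiquitous Txn1 and of mitochondrial Txn2 did not pass the test (log2 fold changes -0.11 and -0.06, adjusted p = 0.626 and 0.725). Reads from near-identical copies were assigned by the authors in a way not given in the sources used here, so Gpx4, Prdx1 and Sod1, which have processed pseudogenes, are uncertain in this respect.

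**Figure D4:**
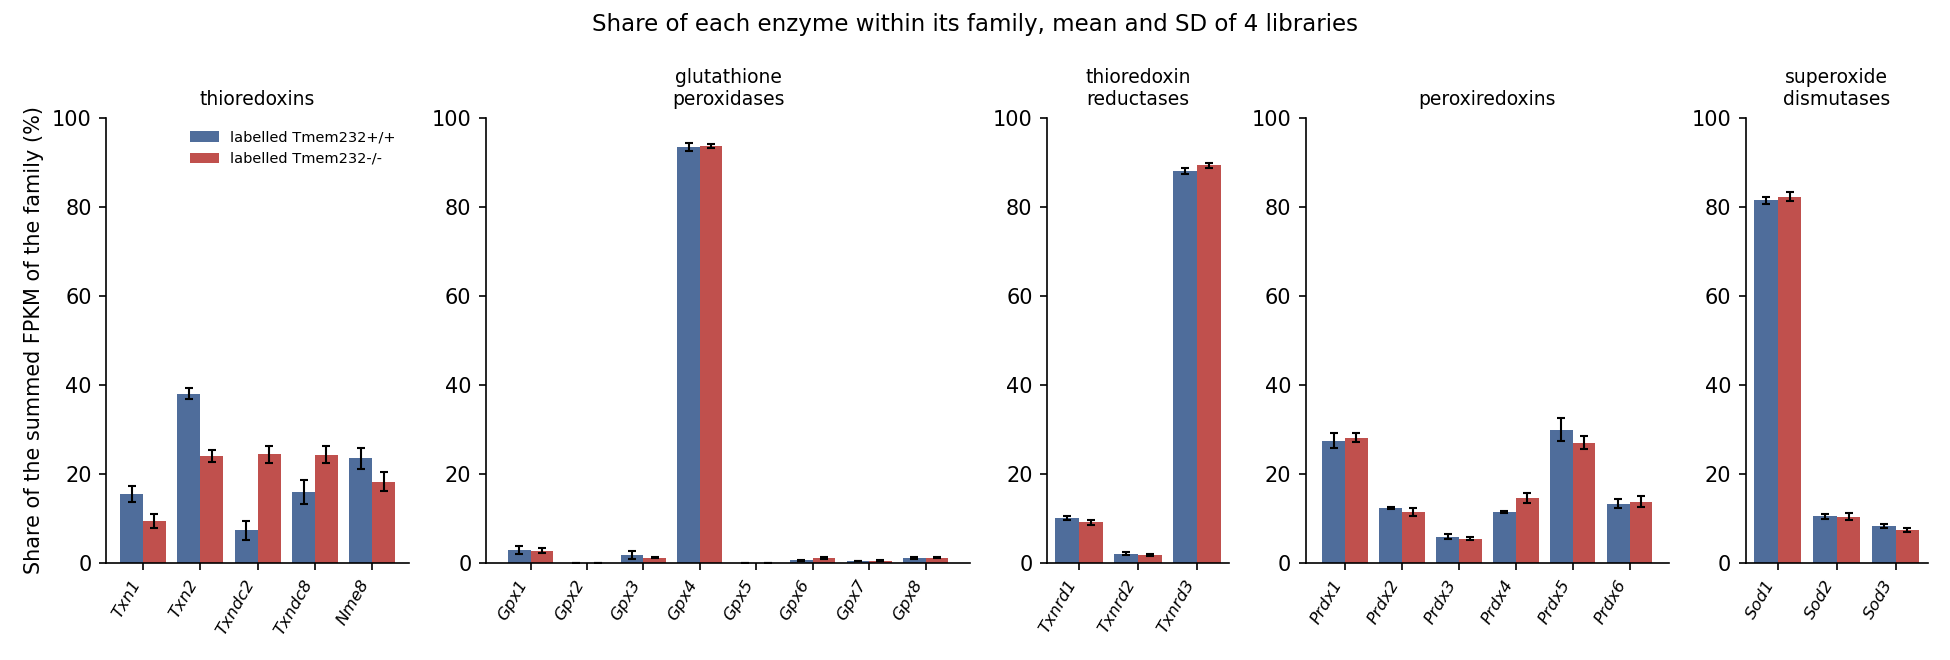
Share of each gene in the summed FPKM of its family, as the mean with SD of 4 wild-type-labelled libraries (blue) and 4 knockout-labelled ones (red). Gpx4, Txnrd3 and Sod1 each hold over 80% of their family in both genotypes, whereas Txndc2 holds 7.25% and 24.3% of the thioredoxins.

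The wider thiol and antioxidant system was followed in 9 lists with 109 genes, of which 107 were in the table and 101 were tested. Of the tested genes 7 passed as higher and 3 as lower, while 91 did not pass, beside 10.3% higher and 1.46% lower over all genes. Their median log2 fold change was -0.06, close to the -0.05 of all genes. Thioredoxins other than the members and thioredoxin-like proteins had 1 gene lower of 17 tested, Txnl4a (log2 fold change -0.26, adjusted p = 0.0294), a splicing factor with a thioredoxin fold. Of the other thioredoxin reductases and peroxiredoxins, only Srxn1 was higher of 7 tested, at 0.69 (adjusted p = 0.014), and this gene encodes sulfiredoxin, which repairs overoxidised peroxiredoxins. When the 3 libraries with Crisp1 were left out, Srxn1 had 0.59 on the log2 scale and missed the threshold (adjusted p = 0.153).

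Of 13 tested genes of glutathione synthesis, peroxidases and glutaredoxins, 3 were higher. Slc7a11, the cystine importer that feeds glutathione synthesis, had 3.63 to 4.77 CPM in the knockout-labelled libraries and 1.37 to 2.48 CPM in the others (log2 fold change 1.17, adjusted p = 0.00233, or 0.27 on the log2(FPKM + 1) scale, which understates low genes). Gpx6 had 7.62 to 11.3 and 3.57 to 6.33 CPM (log2 fold change 1.10, adjusted p = 0.00294), and Glrx2, a mitochondrial glutaredoxin, had 0.47 (adjusted p = 0.0164). The adjusted p of Glrx2 was 0.0546 when knockout-labelled replicate 1 was left out and 0.0532 when wild-type-labelled replicate 4 was. None of the 20 glutathione S-transferases, 4 genes of superoxide dismutases and catalase and 3 methionine sulfoxide reductases passed.

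Of 9 genes listed under Nrf2 regulation and its targets, only Hmox2 passed, higher at 0.56 (adjusted p = 0.00152). Hmox2 is the constitutive heme oxygenase, and its call is not read here as that of an Nrf2 target. The other 8, Nfe2l2, Keap1, Nqo1 and Hmox1 among them, did not pass. Of 20 selenoproteins and factors of selenocysteine insertion, Selenov, a selenoprotein of the testis, had 79.3 to 100.7 CPM in the knockout-labelled libraries and 29.9 to 49.7 CPM in the others (log2 fold change 1.18, adjusted p = 0.000145). Of 8 genes of disulfide formation in the endoplasmic reticulum, Pdilt, a testis-specific disulfide isomerase homologue, was higher at 1.33 (adjusted p = 5.27e-05). Pdia5 and Pdia6, disulfide isomerases found in many tissues, were lower at -0.34 and -0.21 (adjusted p = 0.0259 and 0.0449). The calls of Pdia5, Pdia6 and Txnl4a were lost in 9, 13 and 9 of 19 alternatives. For Pdia6 this included each of the 8 fits without 1 library (adjusted p up to 0.214). For Pdia5 it included those without knockout-labelled replicates 1, 2 or 3 or wild-type-labelled replicates 1, 2 or 4 (up to 0.108), and for Txnl4a those without knockout-labelled replicates 2 or 3 or any wild-type-labelled replicate (up to 0.102).

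**Figure D5:**
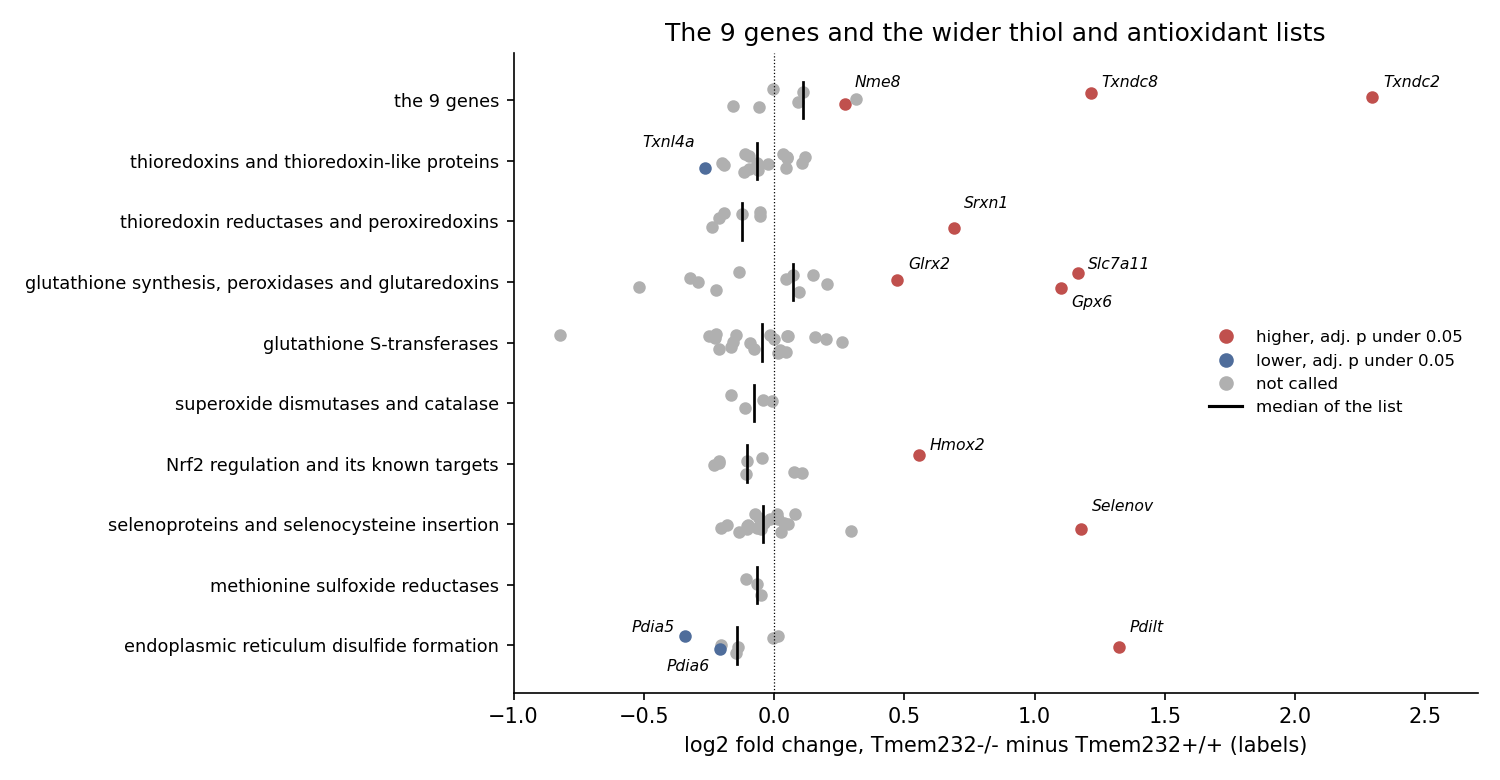
Log2 fold change of the 9 genes and of each tested gene of the wider lists, 1 point per gene, with genes at an edgeR adjusted p under 0.05 named and coloured and a line at the median of each list. The list medians lie between -0.14 and 0.11, and Slc7a11, Gpx6, Selenov and Pdilt lie beyond 1.

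The promoters were examined because Txndc2 and Txndc8 moved together. RefSeq windows on GRCm38.p6 matched 8 of the 9 genes, with 12 start sites, and Gsr had none. The 250 bases upstream of a start are shown for these genes, with the letters CCAAT or their complement ATTGG in capitals. Txndc2 had 2 windows, both inside its deposited span and downstream of its 5′ end, and the window nearer that end is shown.
Txndc8, chr4:58009127-58009376, minus strand: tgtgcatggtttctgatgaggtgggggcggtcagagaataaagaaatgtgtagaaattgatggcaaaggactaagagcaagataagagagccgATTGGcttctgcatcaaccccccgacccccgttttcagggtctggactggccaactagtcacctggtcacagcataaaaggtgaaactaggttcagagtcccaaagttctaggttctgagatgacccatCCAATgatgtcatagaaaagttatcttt
Txndc2, chr17:65642205-65642454, minus strand: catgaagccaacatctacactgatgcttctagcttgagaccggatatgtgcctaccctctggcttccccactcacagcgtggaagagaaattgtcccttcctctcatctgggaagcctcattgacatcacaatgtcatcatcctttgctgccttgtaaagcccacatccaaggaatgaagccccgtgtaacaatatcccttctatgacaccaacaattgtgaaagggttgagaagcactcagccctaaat

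Searched on both strands, the letters CCAAT were found in 6 of the 12 windows, those of Gpx4, Prdx4, Sod1 and Txndc8, and in 33.8% of all 32851 windows. The windows are not independent, since Gpx4 had several. Those of Gpx4 that start at bases 80053315 and 80053409 overlap and share matches to CCAAT and to TGACG, so some matches were counted more than once. TGACGTCA, the full cAMP response element, was in none of the 12 and in 1.55% of all. Its first 5 letters TGACG, which also lie within it, were in 5 windows, those of Gpx4, Prdx4 and Sod1, and in 17.8% of all. TATAAA was in 2 windows, those of Prdx1 and Sod1, and in 12.4% of all. The 2 windows of Txndc2 held none of these letters, and Txndc2 and Txndc8 shared none of them.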

How the data were processed

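RNA from whole testis of 8 mice was sequenced in read pairs with a kit that does not mark strand. The authors mapped reads to GRCm38.p6 with HISAT and Bowtie2 and counted them with StringTie and featureCounts. The authors deposited estimated counts, without normalization. Between 10.7% and 11.2% of genes per library had a count that was not whole, so counts were rounded (those of the 9 members were whole). The FPKM deposited by the authors are scaled by transcript length and library and were used for levels between genes. Columns with the authors' log2 fold change, p-value and group means were not used.

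Genes passing edgeR's default filter were compared between labels with TMM and the quasi-likelihood test (R 4.3.3, edgeR 4.0.16), with Benjamini-Hochberg adjustment over 15787 genes and calls at an adjusted p under 0.05. The CPM of each member also entered an exact two-sided permutation test in Python 3.11.15 with scipy 1.17.1. The fit was also run on simulated data, with an outcome that is not given here. Nothing in the labels says that the mice were independent litters, so p-values measure the spread between these libraries. Intervals cover 95%.

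The members, the 9 wider lists and the 11 marker lists were written with earlier results of these data known. Named genes were the members, Tmem232, up to 3 genes higher and 3 lower with the largest fold in each list, the 3 nearest profiles to each called member among genes of at least 1 CPM, with 0.1 CPM added before the log, 2 abundant markers per list and family members. Alternatives were DESeq2 1.42.0, its size factors, library size alone, TMM without the 10 most abundant genes, no filter, at least 10 counts in every library, limma-voom (limma 3.58.1), log2 of FPKM plus 1 or 0.1 with limma, a replicate block, each library left out, and a fold change of 2 or more. The removal of 3 libraries with Crisp1 was added after seeing the data.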

Additional observations from a re-analysis of the deposited data

Results flagged for a closer look

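In 102 groups of 4 libraries tested over the named genes, 6 had 1 library far from the other 3. By chance about 1 in 20 (5.1) is expected. None of the 6 was a group of the 9 members. Genes named only as family members, Gpx3 among them, were left out of this test. Gpx6 had 6.33 CPM in wild-type-labelled replicate 3, against 3.57 to 3.93 CPM in the others of that label. Cfap221 had 41.6 CPM (others 39.6 to 39.8) and Psmd10 had 11.7 CPM (others 10.4 to 10.6) in wild-type-labelled replicate 1. Acr had 231.4 CPM (others 201.8 to 205.4) and Crisp1 had 5.52 CPM (others 0 to 0.86) in knockout-labelled replicate 1. Hbb-bs, a haemoglobin gene, had 63.8 CPM in wild-type-labelled replicate 3, against 181.9 to 194.9 CPM in the others.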

How the results depend on the processing

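In 19 alternative fits, Txndc2 and Txndc8 were called in all, with log2 fold changes of 2.10 to 2.58 and 1.05 to 1.40, and no member was called lower. The number of members called higher was 2 to 4, and 2 with a fold change of 2 or more. The 9 exact tests and 18 levels did not change side or move beyond 1 SD with another scaling. Replicate numbers were not treated as pairs in the main fit. Same-numbered libraries had correlations of -0.08, 0.07, -0.38 and -0.12 in their deviations from the group means, and unlike-numbered ones had -0.35 to 0.44. These correlations cannot exclude that the mice were paired by litter or handling. With a replicate block 28 of all genes were lower in place of 230, 0 wider genes were lower in place of 3, and Nme8 had an adjusted p of 0.0798.

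Tmem232, Nme8, Srxn1, Glrx2, Cfap221 and Mllt11 lost calls as higher and Prdx4 and Psmd10 gained one in some alternatives. With no fold threshold, 1317 to 1865 of all genes were higher in these fits, and counts of lower genes moved more for their size. Over all genes the lower ones were 131 with DESeq2 size factors, 415 with library size alone, 71 with no filter, 466 and 448 with FPKM plus 1 and plus 0.1, 32 without the 3 libraries with Crisp1, and 37 (without wild-type-labelled replicate 1) to 356 (without knockout-labelled replicate 4) with each library left out. Of the wider genes, 0 were lower with no filter and without those 3 libraries, 7 and 6 with FPKM plus 1 and plus 0.1, and 0 to 7 with each library left out, where 7 came without knockout-labelled replicate 4. With a fold change of 2 or more, 826 genes were higher and 7 lower, in place of 1633 and 230. Sod1 had log2 fold changes of 0.015 with DESeq2, 0.017 with its size factors, 0.036 with no filter, 0.001 with at least 10 counts in every library, 0.049 without those 3 libraries and -0.11 to 0.078 with each library left out. The cause of these shifts was not tested. With 4 libraries each, a Sod1 change of 1.19-fold upward still lies at the edge of its interval.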

Other observations

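Txndc2 lies on chromosome 17 near Tmem232, the gene from which a fragment was deleted. As deposited, 96402 bases lie between the last base of Tmem232 and the lowest coordinate of Txndc2. Within 500000 bases of Txndc2 on either side, Tmem232 was called higher, as given above. Besides it, 9 other genes were tested and none passed the test by edgeR, beside 10.3% higher and 1.46% lower over all tested genes. The log2 fold changes of these 9 lay between -0.18 for Vapa, the gene between Tmem232 and Txndc2, and 0.48 for Ppp4r1 (adjusted p = 0.0668). Rab31, whose start is 2001 bases from Txndc2, had -0.03. This window was chosen after the position of Txndc2 was seen.

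Gpx3, the secreted glutathione peroxidase, had 34.3 CPM in wild-type-labelled replicate 1, the library with the highest Crisp1, and 9.99 to 16.0 CPM in the other 7 libraries. The genotypes overlapped (log2 fold change -0.52, edgeR adjusted p = 0.378). A shared source of Gpx3 and Crisp1 was not tested.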
